A study of Mus musculus with 8 samples.

Results

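Expression of 8 genes of the tailbud and the axial progenitors, *T*, *Cdx1*, *Cdx2*, *Cdx4*, *Nkx1-2*, *Cyp26a1*, *Evx1* and *Sp5*, was examined in 8 single mouse embryos at embryonic day 8.5 (E8.5). Probes of the expression array were assigned to these genes by RefSeq accession, with no use of their measured values. This gave 10 probes of the 8 genes, among 55681 distinct probes and 20660 named genes in the whole series. *Nkx1-2* had 3 probes and each other gene had 1. Of the 10 probes, 9 passed the filter on dim signal and were tested, and these represented all 8 genes. The remaining *Nkx1-2* probe was well above background on 0 of 8 arrays and was not tested. All 8 embryos were heterozygous for the Eedl7Rn5-1989SB allele of *Eed*, a hypomorphic mutation that lowers the function of EED, a core subunit of the histone methyltransferase complex PRC2, on a C57bl6/129 background, and all mothers were wild type. Of these, 4 had a homozygous sire (Eed hypo/hypo), called HOM father embryos here, and 4 a heterozygous one (Eed hypo/wt), called HET father embryos, with 2 females and 2 males in each group. Whole embryos were used, so that a change in the number of tailbud cells and a change in RNA per cell cannot be told apart in any value below. By the study's account there were fewer sires than embryos, so some embryos share a father, the files do not say which, and p-values measure the spread between embryos and not between sires. The 4 arrays of a father group also shared a slide, and slide and father cannot be told apart.

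At E8.5 the posterior end of the embryo holds the remnant of the primitive streak, the caudal lateral epiblast and the node-streak border, whose progenitors extend the trunk by giving rise to spinal cord and paraxial mesoderm. Wnt and Fgf ligands made there keep the progenitors in place, the T-box factor encoded by *T* (brachyury) and the caudal-type homeobox factors of the *Cdx* genes act downstream of and together with Wnt signalling, and the retinoic acid hydroxylase encoded by *Cyp26a1* clears retinoic acid that diffuses from the somites. *Cdx* factors also activate *Hox* genes of the trunk. Many of these genes are textbook targets of PRC2 in embryonic stem cells.

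Sequences upstream of 3 members are shown, of *T* and *Sp5* because they are textbook targets of Wnt signalling and of *Cyp26a1* because retinoic acid induces it. They were read from a RefSeq promoter table of build GRCm38.p6, in which 7 of the 8 genes had an entry. The 250 bases before the start of *T* (chr17:8434173-8434422) and of *Sp5* (chr2:70474673-70474922) both lie on the plus strand. Capitals mark a Tcf/Lef core (CTTTG followed by any pair of A or T bases, on either strand) and, in *T* alone, a Cdx site (TTTATG or TTTATTG, on either strand). The 2 kinds of match do not overlap.
T: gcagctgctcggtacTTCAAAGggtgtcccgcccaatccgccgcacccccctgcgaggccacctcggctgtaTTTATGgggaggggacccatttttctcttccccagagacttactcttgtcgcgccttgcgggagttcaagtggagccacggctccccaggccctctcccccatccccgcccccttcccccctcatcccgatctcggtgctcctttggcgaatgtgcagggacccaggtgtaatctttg
Sp5: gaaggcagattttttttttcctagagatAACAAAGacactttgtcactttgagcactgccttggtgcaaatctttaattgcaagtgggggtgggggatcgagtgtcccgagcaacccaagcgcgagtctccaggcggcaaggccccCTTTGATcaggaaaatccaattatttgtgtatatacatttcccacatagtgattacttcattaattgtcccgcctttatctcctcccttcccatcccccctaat
*T* held 1 Tcf/Lef core and 1 Cdx site, and *Sp5* held 2 Tcf/Lef cores. The Tcf/Lef core was in 2 of the 7 members' promoters and in 14.8% of all 32851 promoters of the same length, and the Cdx site was in 2 of 7 (*T* and *Evx1*) and in 14.3%. The T-box half-site TCACACC was in 0 of 7 and in 3.33% of all promoters. These matches are descriptions of letters and not measured binding sites.

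For *Cyp26a1*, the window shown (chr19:37697770-37697799, plus strand, build GRCm38.p6) begins upstream of the start in the promoter table and lies inside the span of another RefSeq transcript of the gene. Capitals mark a retinoic acid response element on the minus strand, defined as 2 half-sites, each AGGTCA or AGTTCA, in the same direction and 5 bases apart.
Cyp26a1: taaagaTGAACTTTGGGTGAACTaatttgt
The element was in this 1 of the 7 members' promoters and in 11 of the 32851 promoters (0.0335%).

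RNA of each embryo was hybridised to 1 single-colour array. Between 51.9% and 60.8% of spots were well above background on an array, and normalised signals of 2 arrays correlated at 0.988 to 0.993 within and 0.982 to 0.992 between father groups. Normalised signal is given as log2 of the processed intensity minus the 75th percentile of that array, so that 0 is a bright probe at the 75th percentile. Probes differ in how well they bind their target, so levels are compared between embryos and not between genes. Of the markers fixed for the tailbud, *Fgf8*, *Tbx6* and *Msgn1* were well above background on 8 of 8 arrays, and *Wnt3a* was on at most 2.

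*T* encodes the T-box factor that defines the streak, the tailbud mesoderm and the notochord. *T* (chr17:8434423-8442496, probe A_55_P2029161) was at 1.04, 1.42, 1.15 and 1.08 in HOM father embryos 1 to 4 and at 1.25, 1.13, 1.25 and 1.26 in HET father embryos 1 to 4. The groups overlapped, with HOM father embryo 2 the highest of all 8 and HOM father embryo 1 the lowest. The difference, HOM father minus HET father, was -0.05 (SE 0.09), and limma gave an adjusted p of 0.728.

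The caudal-type homeobox genes *Cdx1*, *Cdx2* and *Cdx4* act together in posterior elongation, and *Cdx1* also responds directly to Wnt and retinoic acid. *Cdx1* (chr18:61018862-61036199, probe A_55_P2157205) was at 2.69, 3.94, 2.83 and 2.94 in HOM father embryos 1 to 4 and at 3.43, 3.31, 3.47 and 3.34 in HET father embryos 1 to 4. HOM father embryos 1, 3 and 4 were therefore below every HET father embryo, while HOM father embryo 2 was above every one. The mean was 3.10 ± 0.57 (SD, n = 4) with a HOM father and 3.39 ± 0.07 with a HET father, and the difference of -0.28 was not called by limma (95% interval -0.88 to 0.31, adjusted p = 0.476). Without HOM father embryo 2 the difference was -0.56 with an adjusted p of 0.00543 in limma, so that 1 embryo decided the call.

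*Cdx2* (chr5:147300900-147307249, probe A_52_P177490) was at 2.82, 2.58, 2.98 and 2.77 in HOM father embryos and at 3.08, 2.96, 3.01 and 2.96 in HET father embryos. HOM father embryo 3 was the only 1 of the 4 within the range of the HET father embryos, and embryo 2, highest for *Cdx1*, was lowest for *Cdx2*. The difference was -0.21 (95% interval -0.41 to -0.02, adjusted p in limma = 0.117). In limma it passed an adjusted p of 0.05 under normexp background correction (-0.27, adjusted p = 0.0429) and under scaling to the array median. Under that scaling the median difference of all tested probes was -0.21, and the *Cdx2* difference relative to that median was -0.19.

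*Cdx4* (chrX:103321398-103330224, probe A_55_P2032430) was at -0.66, -0.29, -0.24 and -0.43 in HOM father embryos and at -0.32, -0.25, -0.22 and -0.12 in HET father embryos. HOM father embryos 1 and 4 were below all HET father embryos, and embryos 2 and 3 lay within their range. The difference was -0.18 (95% interval -0.41 to 0.04, adjusted p in limma = 0.230).

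*Nkx1-2* encodes a homeobox factor that marks the caudal lateral epiblast and the preneural tube, where neuromesodermal progenitors lie. Of its 2 tested probes (gene at chr7:132596239-132599637), A_51_P470304 was at -3.98, -3.19, -3.55 and -3.76 in HOM father embryos and at -3.26, -3.24, -3.50 and -3.59 in HET father embryos. A_55_P2131016 was at -2.57, -2.84, -2.63 and -2.83 in HOM father embryos and at -2.52, -2.73, -2.56 and -2.70 in HET father embryos. The probes placed HOM father embryos 1 and 2 at opposite ends, with embryo 1 lowest and embryo 2 highest on the first probe and the reverse on the second. The differences were -0.22 (adjusted p in limma = 0.399) and -0.09 (adjusted p = 0.503), and the groups overlapped on both probes. The untested probe, A_55_P2131020, ranged from -7.97 to -6.24 over the 8 arrays.

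*Evx1* encodes an even-skipped type homeobox factor of the posterior streak and tailbud. *Evx1* (chr6:52313498-52318389, probe A_55_P2125521) was at 1.85, 2.39, 2.15 and 2.02 in HOM father embryos and at 2.13, 2.15, 2.16 and 2.19 in HET father embryos. The HET father embryos spanned 0.05 and the HOM father embryos 0.54, on both sides of them. The group means of 2.10 ± 0.23 and 2.16 ± 0.02 (SD, n = 4 each) differed by -0.06 (adjusted p in limma = 0.746).

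*Sp5* encodes a zinc finger factor that Wnt signalling induces directly and that in turn tempers the Wnt response. *Sp5* (chr2:70474923-70477726, probe A_51_P404193) was at 2.32, 2.77, 2.31 and 2.39 in HOM father embryos and at 2.44, 2.50, 2.68 and 2.45 in HET father embryos. HOM father embryos 1, 3 and 4 were below every HET father embryo and HOM father embryo 2 was above every one, the arrangement seen for *Cdx1*. The difference was -0.07 (95% interval -0.33 to 0.20, adjusted p in limma = 0.722).

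*Cyp26a1* (chr19:37697738-37701536, probe A_52_P382149) was at 1.37, 1.63, 1.43 and 1.36 in HOM father embryos and at 1.65, 1.66, 1.67 and 1.66 in HET father embryos. It was the only tested member probe on which the groups did not overlap, with a gap of 0.02 between HOM father embryo 2 and the lowest HET father embryo. Over all probes with a value on every array, 13% had every HOM father embryo below every HET father embryo, against 1 of 9 here. The means were 1.45 ± 0.12 and 1.66 ± 0.01 (SD, n = 4 each), a 1.16-fold difference of -0.21 on the log2 scale (95% interval -0.36 to -0.06), which was not called (adjusted p in limma = 0.0590). Without HOM father embryo 2 it was -0.27 with an adjusted p of 0.00915, and under normexp background correction it was -0.05.

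**Figure D1:**
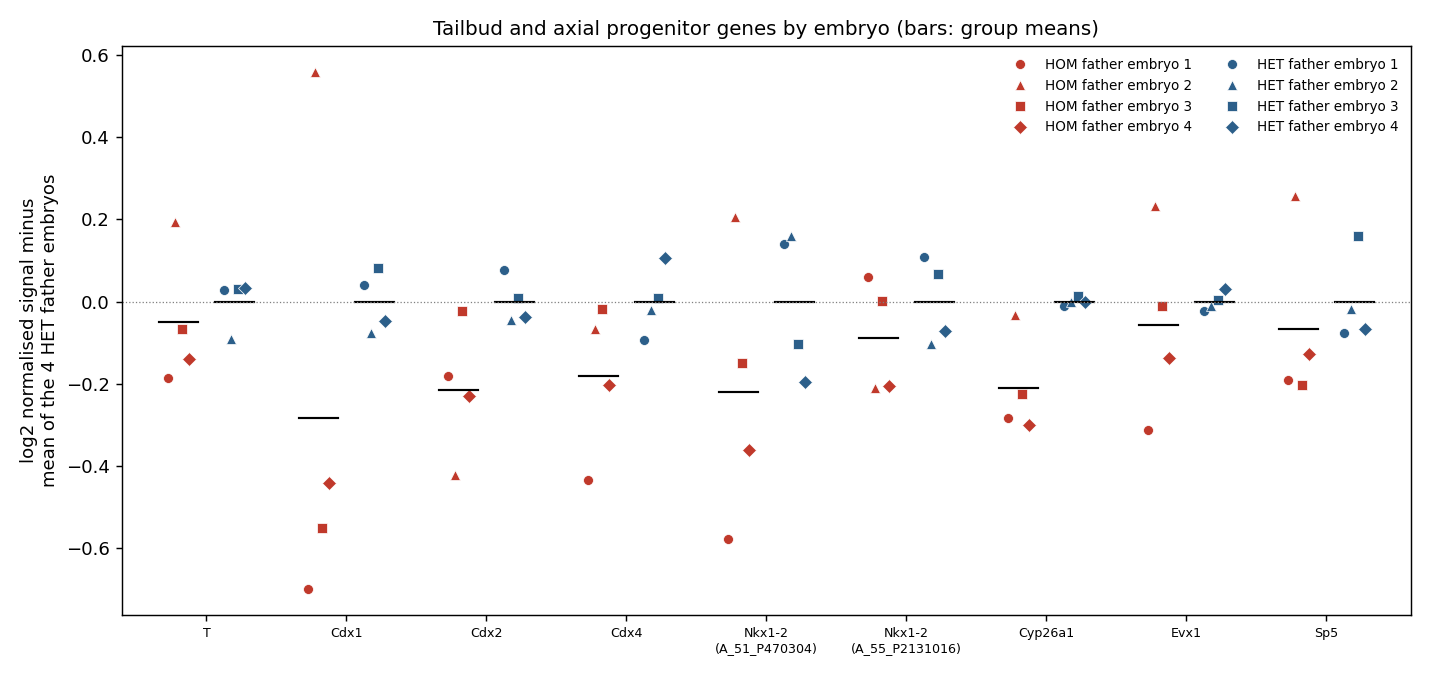
Log2 normalised signal of each tested member probe (x axis) in each embryo, minus the mean of the 4 HET father embryos (y axis, log2 units). Red symbols are HOM father embryos 1 to 4, blue symbols HET father embryos 1 to 4, and bars group means. HOM father embryo 2 (red triangle) lies at the top for *T*, *Cdx1*, *Evx1* and *Sp5* and at the bottom for *Cdx2*, and the blue symbols of *Cyp26a1* and *Evx1* lie close to 0.

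No member differed by father under either rule for a call. By the limits of the study's methods (adjusted p below 0.01, 2-fold or more), limma called 0 of 9 member probes and 1.27% of all 29718 tested probes. At an adjusted p below 0.05 with no limit on the fold, it again called 0 of 9, against 8.69% of all tested probes called lower and 12.3% called higher with a HOM father. The largest fitted difference among the 9 was 1.22-fold (*Cdx1*) and the smallest 1.04-fold (*T*), and every 95% interval lay inside 2-fold in both directions. At an unadjusted p below 0.05 were 2 of 9 member probes (*Cdx2* and *Cyp26a1*) and 34.8% of all tested probes. All 9 differences were fitted below 0, with a median of -0.18, compared with 54.1% of all tested probes and a median of -0.02. Several lists read below leaned the same way. Fitted below 0 were 8 of 8 retinoic acid genes and 16 of 18 *Hox* genes of groups 6 to 13. So were 5 of 5 anterior brain and 5 of 5 yolk sac endoderm markers. The share was 2 of 5 for node and notochord genes, 2 of 5 for somite markers and 0 of 3 for decidua markers. The members share embryos and lie in 1 tissue, so that these 9 signs are not independent of each other. The signs of 2 of them turned with the processing or the embryos used, *T* to 0.05 under normexp background correction and *Evx1* to 0.03 without HOM father embryo 1. Relative to the median of all tested probes under quantile normalisation, *T*, *Evx1* and *Sp5* were at 0.02, 0.01 and 0.01. The other member probes lay below that median.

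**Figure D2:**
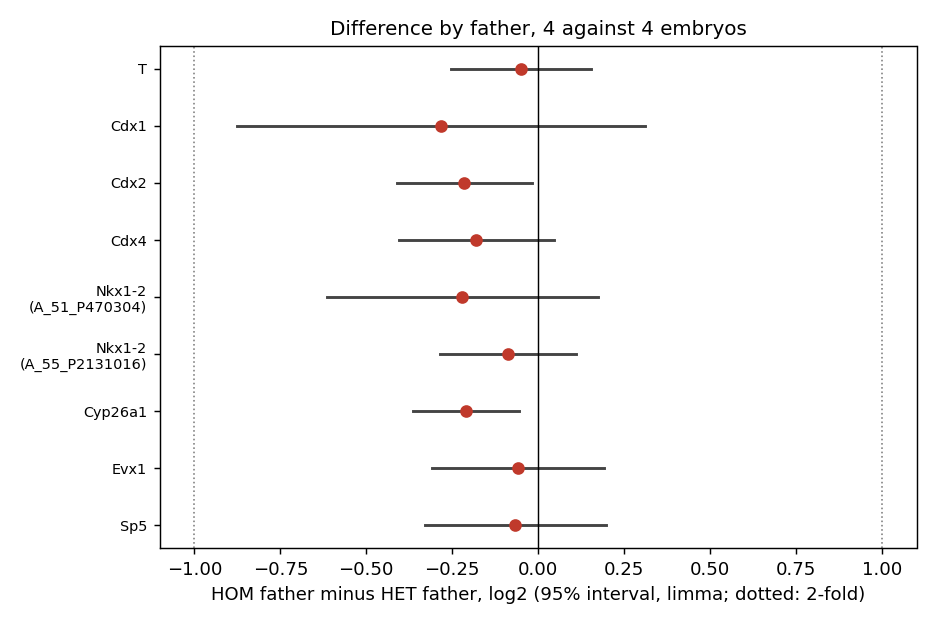
Fitted difference of each tested member probe, HOM father minus HET father (x axis, log2 units), with points for the limma estimate and lines for its 95% interval (4 embryos in each group). All 9 points are below 0, the intervals of *Cdx2* and *Cyp26a1* do not reach 0, and the interval of *Cdx1* is the widest, from -0.88 to 0.31.

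The members varied more among HOM father embryos than among HET father embryos. The SD over 4 embryos was larger with a HOM father on 9 of 9 tested member probes, compared with 53.5% of all tested probes. The ratio of the SDs had a median of 2.78 over the 9 probes and of 1.06 over all tested probes. The ratio was largest for *Cyp26a1* (11.5), *Evx1* (9.78) and *Cdx1* (7.72), each of which had an SD of at most 0.07 in HET father embryos, and smallest for the *Nkx1-2* probe A_55_P2131016 (1.36). A wider spread with a HOM father was not particular to the members. Each tested caudal Wnt or Fgf ligand listed below had it, by the probe standing for the gene (*Wnt3*, SD 0.20 against 0.07). So did each tested retinoic acid gene except *Aldh1a2* (0.07 against 0.12). Genes of the streak and posterior paraxial mesoderm went both ways (*Tbx6* 0.16 against 0.08, *Hes7* 0.07 against 0.12). HOM father embryo 2 was the highest HOM father embryo on 6 of 9 member probes (34.8% of all probes) and the highest of all 8 embryos on 5 (15.8%). HOM father embryo 1 was the lowest HOM father embryo on 5 (26.7%) and the lowest of all 8 on the same count of 5 (14.5%). These shares are given as descriptions, without a test, since the 9 probes were measured in the same 8 embryos. Over the 8 genes, the mean level of the members was 1.11 in HOM father embryo 1 and 1.45 in HOM father embryo 2, and 1.25 and 1.16 in embryos 3 and 4. In HET father embryos it ranged from 1.34 to 1.43.

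With both HOM father embryos 1 and 2 left out, an alternative chosen after the values were seen, limma called *Cdx1* (-0.50, adjusted p = 0.0165) and *Cyp26a1* (-0.26, adjusted p = 0.0358) lower in the remaining 2 HOM father embryos and no other member. Both HOM father embryos 1 and 2 were female.

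Sex was balanced over the father groups. With father as a covariate, limma called 0 of 9 member probes by sex and 0.121% of all tested probes (36 probes) at an adjusted p below 0.05. Differences, female minus male, ran from -0.11 for *Cdx4* to 0.27 for *Cdx1*, with a lowest unadjusted p of 0.235 (*Sp5*) and a lowest adjusted p of 0.914. The means for *Cdx1* were 3.38 ± 0.52 in females and 3.11 ± 0.26 in males (SD, n = 4 each), and without HOM father embryo 2 the fitted difference was -0.01. The interaction of father and sex, with 2 embryos in each combination, was called on 0 of 9 member probes and on 0.0639% of all tested probes (19 probes). The interaction estimate for *Cdx1* had a 95% interval from -1.01 to 1.62, which takes in 2-fold differences in either direction.

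The 5 probes of other genes whose signal over the 8 embryos was most like that of *T*, out of 29692 probes, were *Endog* (Pearson's r = 0.991), *Bag5* (0.990), *Tmem176b* (0.971), *2210416O15Rik* (0.965) and *Mrps9* (0.961). These values are given as a description, with no test. Among members, *Cdx1* (r = 0.924), *Evx1* (0.913) and *Sp5* (0.813) were nearest to *T* over all 8 embryos, ranking 25, 38 and 328 among all probes. *Cyp26a1* was at 0.707, *Cdx4* at 0.590, and the *Nkx1-2* probes were at 0.713 and -0.19. *Cdx2* was at -0.22. This order rested on HOM father embryo 2, which was highest for *T* and *Cdx1* and lowest for *Cdx2*. Without it r was 0.85 for *Cdx1*, 0.84 for *Cdx2*, 0.83 for *Evx1*, 0.83 for *Cyp26a1*, 0.80 for *Cdx4* and 0.61 for *Sp5*. The points share 8 arrays, their scaling and the father grouping.

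To compare the members with the genes around them, lists of their paralogues, of the signals that maintain the tailbud and of its derivatives were read in the same fit, at an adjusted p below 0.05 with no fold limit. Of 4 tested close paralogues, which lie largely in other tissues, 0 were called (median -0.15). *Eomes*, a T-box gene of the early streak, was at -0.28 (adjusted p in limma = 0.475), *Cyp26c1* at -0.38 (adjusted p = 0.395) and *Sp8* at 0.06 (adjusted p = 0.568). The other tested *Sp8* probe was at 0.52. Of 10 tested caudal Wnt and Fgf ligands, 1 was called lower and 0 higher, with a median of -0.16 (-0.07 without HOM father embryo 1). *Fgf17* was at -4.45, -5.17, -5.22 and -5.24 in HOM father embryos and at -4.24, -3.66, -4.31 and -3.83 in HET father embryos, a difference of -1.01 (adjusted p in limma = 0.0165), or -0.48 under normexp background correction. It was well above background in 4 of 4 HET father but only 1 of 4 HOM father embryos, so it passed the filter through the HET father embryos, and the size of its difference is set against values near background. *Fgf8*, the main Fgf of the tailbud, was at -0.17 (adjusted p = 0.459), *Wnt5a* at -0.19 (adjusted p = 0.0652) and *Wnt5b* at -0.16 (adjusted p = 0.170). The other tested *Fgf8* probe was at -0.37.

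Genes that report Wnt and Fgf signalling moved in both directions. Of 11 tested, 3 rose and 3 fell with a HOM father, with a median of -0.14. *Notum*, which encodes a secreted enzyme that inactivates Wnt ligands, was at 3.27, 3.35, 3.32 and 3.30 in HOM father embryos and at 2.73, 2.67, 2.81 and 2.77 in HET father embryos. *Axin2*, a negative feedback gene of the Wnt pathway, was at 0.64, 1.07, 0.79 and 0.81 against 0.13, -0.02, 0.27 and 0.25. *Spry4*, a feedback inhibitor of Fgf signalling, was at -1.44, -0.85, -1.15 and -1.04 against -2.07, -2.40, -2.05 and -1.96. None of the 3 had overlapping groups, which adds little to their calls in the same embryos. The share of all probes separated in this direction is not given, so no excess is read from these 3. The 3 genes rose by 0.56 (adjusted p = 0.000373), 0.67 (adjusted p = 0.00426) and 1.00 (2.01-fold, adjusted p = 0.00293) in limma. Each kept its call in all 19 alternatives run. The other tested *Axin2* probe was at 0.05, so that the rise holds for 1 of 2 probes. *Lef1*, a transcription factor of the Wnt pathway, fell by 0.31 (adjusted p = 0.00799), and the Fgf-responsive Ets factors *Etv5* and *Etv4* fell by 0.27 (adjusted p = 0.00900) and 0.48 (adjusted p = 0.0458). *Lef1* kept its call in all 19 alternatives run. *Etv5* was at -0.11 and not called under normexp background correction (adjusted p = 0.170). *Etv4* lost its call when any of 6 of the 8 embryos was left out, and its other tested probe was at -0.32.

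Of 12 tested genes of the streak, the axial progenitors and the posterior paraxial mesoderm, 4 fell and 0 rose (median -0.18). *Tbx6*, a T-box gene that commits progenitors to paraxial mesoderm, was at 1.55, 1.90, 1.59 and 1.62 in HOM father embryos and at 1.92, 1.96, 2.11 and 1.97 in HET father embryos, and fell by 0.32 (adjusted p = 0.0359). *Msgn1*, which acts with *Tbx6* in the presomitic mesoderm, fell by 0.44 (adjusted p = 0.0407), *Hes7*, an oscillating gene of the segmentation clock, by 0.35 (adjusted p = 0.0124), and *Greb1* by 0.22 (adjusted p = 0.0341). On the probes given, groups did not overlap on any of these 4 genes, all of them called in the same embryos. Over all probes with a value on every array, 13% had every HOM father embryo below every HET father embryo. The other tested probes of *Tbx6* and *Greb1* were at -0.17 and -0.34. Leaving out single embryos ended the call of *Tbx6* in 7 of 8 cases (adjusted p up to 0.0910), of *Greb1* in 7 (up to 0.0861) and of *Msgn1* in 5 (up to 0.101), and the call of *Hes7* in 0 of 8. *Greb1* was at -0.10 under normexp (adjusted p = 0.223). *Sox2*, shared by neural and neuromesodermal progenitors, was at 0.07 (adjusted p = 0.692).

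Of 8 tested genes of retinoic acid synthesis and response, 1 fell and 0 rose (median -0.11). *Rarg*, a retinoic acid receptor of the posterior embryo, fell by 0.33 (adjusted p = 0.0474), a call lost without any of 6 of the 8 embryos. *Aldh1a2*, which makes retinoic acid in the somites, was at -0.21 (adjusted p = 0.0775) and *Crabp1* at -0.24 (adjusted p = 0.105). Of 5 tested genes of the node and notochord, the other sites of *T* expression, 2 rose and 0 fell (median 0.14, which was -0.05 under scaling to the array median and 0.08 without HOM father embryo 1). *Chrd* and *Nog*, which encode secreted antagonists of BMP ligands, rose by 0.74 (adjusted p in limma = 0.000458) and 0.54 (adjusted p = 0.0145). Under normexp background correction the rise of *Chrd* was 0.35 (adjusted p = 0.00639), and without HOM father embryos 1 and 2 *Nog* was not called (adjusted p = 0.0608). *Foxa2* was at -0.00 (its other tested probe at 0.12) and *Shh* at 0.14 (adjusted p = 0.268). Under scaling to the array median *Shh* was at -0.05. Both values of -0.05 under that scaling are set against a median difference of all tested probes of -0.21. Relative to that median *Shh* was at 0.17.

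**Figure D3:**
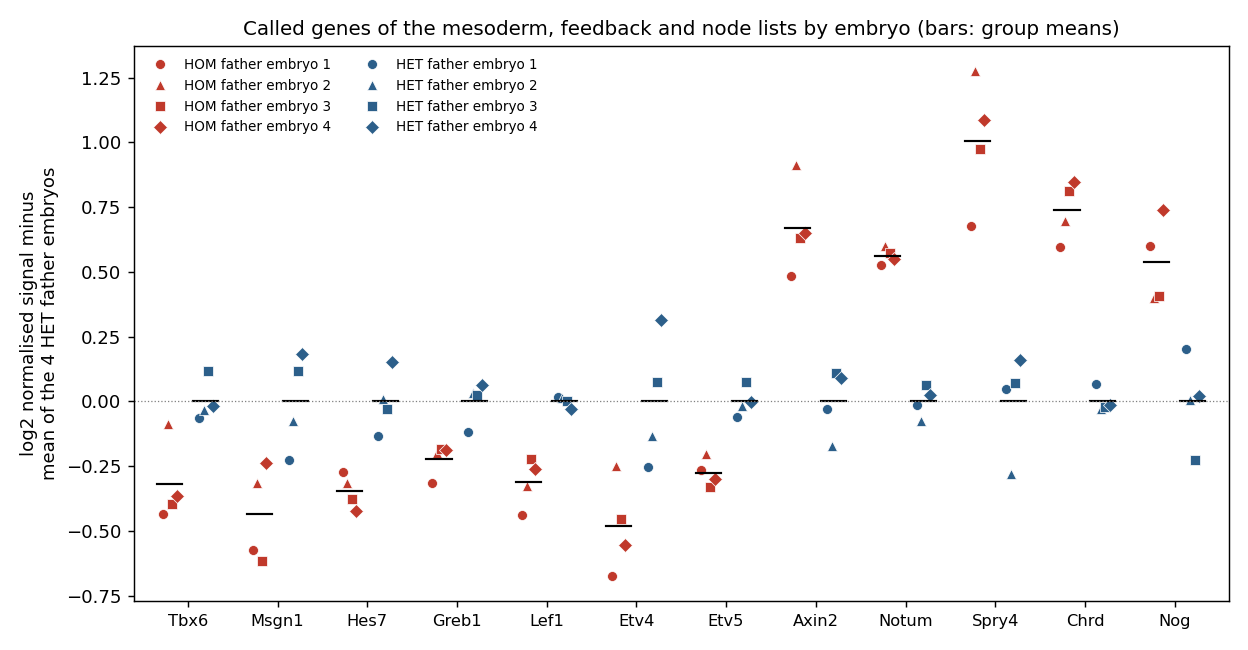
Log2 normalised signal of the called genes of the mesoderm, feedback and node lists (x axis) in each embryo, minus the mean of the 4 HET father embryos (y axis, log2 units). Symbols and bars are as for the plot of the members by embryo. *Tbx6*, *Msgn1*, *Hes7*, *Greb1*, *Lef1*, *Etv4* and *Etv5* lie below 0 in HOM father embryos, and *Axin2*, *Notum*, *Spry4*, *Chrd* and *Nog* lie above 0 in all 4.

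*Hox* genes are regulated by *Cdx* factors in the posterior embryo. Of 15 tested genes of paralogue groups 1 to 5, 1 fell and 0 rose, with a median of -0.08 (-0.03 without HOM father embryo 2, -0.05 without HET father embryo 3 or 4), and *Hoxc4* fell by 0.39 (adjusted p = 0.0138). Of 18 tested genes of groups 6 to 13, 1 fell and 0 rose, with a median of -0.30. The count that fell depended on the setting, at 6 under normexp background correction and 5 with sex as a covariate. It was 0 of 14 with probes well above background on all arrays, and 0 without HOM father embryos 1 and 2. In each of these settings 0 rose. *Hoxc10* was at -4.70, -4.36, -4.18 and -4.68 in HOM father embryos and at -4.01, -3.36, -3.49 and -3.25 in HET father embryos, a fall of 0.95 (adjusted p = 0.0116), and was well above background in 3 of the 4 HOM father embryos. Under normexp its difference was -0.56 (adjusted p = 0.0148). Without HOM father embryos 1 and 2, neither *Hoxc10* (adjusted p = 0.0727) nor *Hoxc4* (adjusted p = 0.0667) was called. *Hoxa7* was at -0.67 (adjusted p = 0.0754) and *Hoxb6* at -0.30 (adjusted p = 0.0680). The median of groups 6 to 13 was -0.19 without HOM father embryo 1 and -0.15 without embryos 1 and 2.

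HOM father embryo 1 stood apart in markers of the allantois, the extraembryonic mesoderm that grows from the posterior end of the streak. *Tbx4* was at -0.68 in this embryo and between 2.12 and 2.42 in the other 7, and *Wnt2* at -4.16 compared with -2.23 to -0.92. *Hand1* was at 2.94 in this embryo and between 3.03 and 3.42 in the other 7. The distal genes *Hoxa10*, *Hoxa11* and *Hoxa13*, chosen after their values were seen, were at -4.73, -3.06 and -5.45 and at their lowest here. The mean level of the 3 allantois markers was -0.64 in HOM father embryo 1 and between 1.13 and 1.45 in the others. Embryo 1 was also the lowest of all for *T*, *Cdx1*, *Cdx4*, *Evx1* and 1 *Nkx1-2* probe. The part of this in the members' differences was not tested beyond leaving out the embryo, which gave differences for the members between -0.23 and 0.03.

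**Figure D4:**
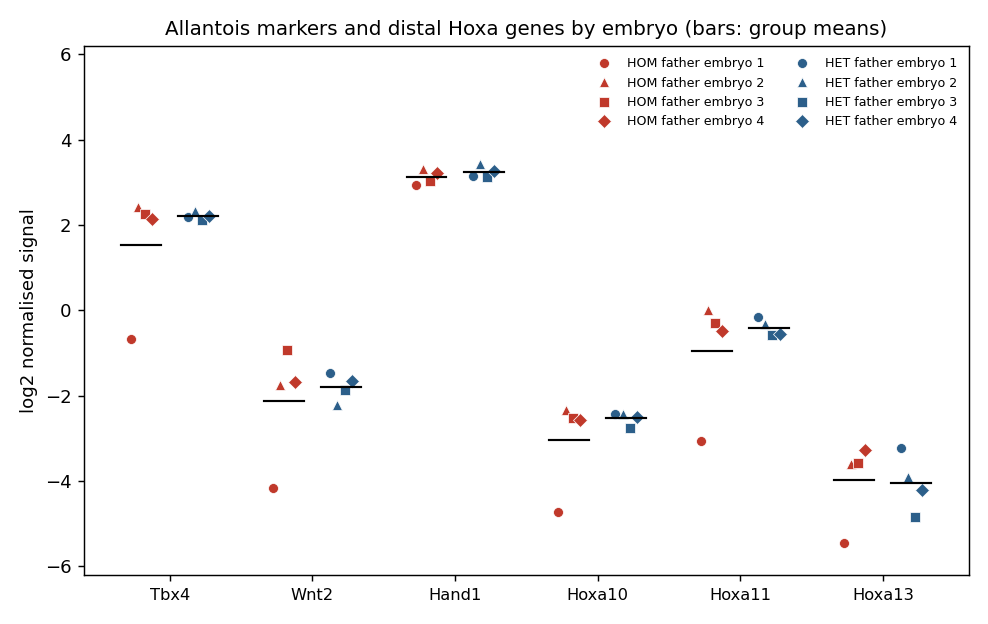
Log2 normalised signal (y axis) of 3 allantois markers and 3 distal *Hoxa* genes (x axis) in each embryo. Symbols and bars are as for the plot of the members by embryo. HOM father embryo 1 (red circle) lies below the other 7 embryos for *Tbx4*, *Wnt2*, *Hoxa10*, *Hoxa11* and *Hoxa13*.

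Markers of the other tissues of a whole embryo were read beside the members. Of 5 heart markers 1 fell (*Myl7*, -0.25, adjusted p = 0.0408), of 5 tested somite markers 1 rose (*Uncx*, 0.63, adjusted p = 0.00377) and of 5 yolk sac endoderm markers 1 fell (*Apoa1*, -0.41, adjusted p = 0.0139). *Myl7* lost its call when any of 7 of the 8 embryos was left out (adjusted p up to 0.102) and was at -0.13 under normexp (adjusted p = 0.198). *Uncx* was at 0.36 under normexp (adjusted p = 0.00787), and *Apoa1* was not called without HOM father embryos 1 and 2 (adjusted p = 0.0682). None of 5 anterior brain, 4 trophoblast, 3 allantois or 3 maternal decidua markers was called. The mean level of the decidua markers ran from -0.44 to 1.16 in HOM father embryos and from -1.90 to 0.21 in HET father embryos with the widest range in *Prl8a2*, which was between -3.99 and 4.45 over the 8 arrays. *Prl8a2* differed by 2.97, HOM father minus HET father (adjusted p in limma = 0.215), and the trophoblast gene *Prl3d1* by 1.88 (adjusted p = 0.208). The other tested genes of these lists lay between -0.30 (*Plac1*) and 0.23 (*Pgr*). The level of the decidual gene *Prl8a2* thus differed widely among embryos of both groups, and its part in the members' differences was not tested. HOM father embryo 2 was the highest in trophoblast markers (mean level 0.73, others -0.80 to 0.15), and lay at -2.59 for the sclerotome gene *Pax1*, chosen after its value was seen.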

How the data were processed

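Whole E8.5 embryos were profiled on Agilent SurePrint G3 Mouse GE arrays, 1 array per embryo (4 with a HOM father, 4 with a HET father). Per the labels, RNA was DNase treated, amplified and Cy3 labelled. The deposited scanner files hold the intensity of each spot, made by the authors with Agilent Feature Extraction version 11.0.1.1 (submitters' processing notes), which subtracts background and sets a floor, with no scaling between arrays. The authors' series-wide table repeats these intensities, rounded (largest relative difference 0.497%). Deposited 0 or 1 flags were used as filters.

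Processed intensity was converted to log2, scaled by subtracting each array's 75th percentile, and spots of 1 probe were averaged. Probes were tested if, on at least 4 of 8 arrays, they passed the well-above-background flag and the array's 20th percentile (29718 of 55681, 53.4%). Precision is limited by the number of arrays. Accessions were matched without versions to RefSeq (GRCm38.p6), from which gene coordinates and sequences were also taken, and 27235 probes matched (48.9%). Of several tested probes of a gene, the brightest over all arrays stands for it in counts of genes.

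Differences by father, by sex (father as covariate) and their interaction were tested over all tested probes with limma 3.58.1 in R 4.3.3 (lmFit and eBayes, two-sided, Benjamini-Hochberg). The procedure was tested on simulated data. Each other list names up to 3 genes of lowest adjusted p, and genes named beyond that were chosen after their values were seen. Some results of the marker lists are not reported here. The members and lists were chosen with earlier results of these data known. Alternatives were quantile normalisation, median scaling, normexp background correction (offset 50), the deposited table, 2 other filters, sex as covariate, the replicate number as a block, the leading identifier number as a random block, an intensity trend with robust variance, and leaving out arrays. The mean signal column planned for normexp was not used, and median spot and background signals took its place. Each father group was on a slide of its own, so no fit could separate slide from father.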

Additional observations from a re-analysis of the deposited data

Results flagged for a closer look

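Among 136 sets of 4 arrays of 1 father group that were examined (member probes, named genes and mean levels of lists), 14 held 1 array separated from the other 3 by more than Dixon's 95% limit for the gap. Chance puts about 1 in 20 such sets past the limit. The sets are not independent, since the allantois mean holds *Tbx4*, and *Hoxa10*, *Hoxa11* and *Hoxa13* were chosen after their values were seen, so the number of sets past the limit is a description and no excess is read from it. Of the members, *T* was at 1.13 in HET father embryo 2 and at 1.25 to 1.26 in the other 3 HET father embryos, and *Sp5* was at 2.77 in HOM father embryo 2 and at 2.31 to 2.39 in the other 3.

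HOM father embryo 1 accounted for 8 of the 14. In it the mean level of the allantois markers was -0.64 (others of its group 1.23 to 1.45), *Tbx4* was at -0.68 (2.15 to 2.42), *Hoxa10* at -4.73 (-2.57 to -2.32), *Hoxa11* at -3.06 (-0.47 to 0.00), *Hoxa13* at -5.45 (-3.60 to -3.27), *Hoxb6* at 1.42 (1.79 to 1.82), *Greb1* at 4.17 (4.29 to 4.30) and *Fgf17*, in the other direction, at -4.45 (-5.24 to -5.17). The remaining 4 were *Chrd* at -3.84 in HET father embryo 1, *Hba-x* at 6.93 in HOM father embryo 3, and *Elf5* at -2.30 in HOM father embryo 2 and at -2.08 in HET father embryo 3.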

How the results depend on the processing

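Of 171 father differences of member probes under the alternatives, 160 kept their direction and their side of the threshold, 9 newly passed an adjusted p of 0.05 in limma and 2 turned sign. The signs that turned were *T* under normexp (0.052) and *Evx1* without HOM father replicate 1 (0.027). Those that newly passed were *Cdx2* (-0.41), *Cdx4* (-0.37) and *Cyp26a1* (-0.40) under median scaling, *Cdx2* under normexp (-0.27), *Cyp26a1* with an intensity trend and robust variance (-0.21), and *Cdx1* (-0.56) and *Cyp26a1* (-0.27) without HOM father replicate 2, or -0.50 and -0.26 with HOM father replicates 1 and 2 both left out. Under median scaling the median difference of all tested probes was -0.21 (-0.02 in the main fit), and relative to that median the first 3 were at -0.19, -0.16 and -0.19. The count of member probes called at an adjusted p below 0.05 was 3 under median scaling, 1 under normexp, 1 with the intensity trend, 2 with both arrays left out and 0 to 2 with single arrays left out. Leaving out single arrays gave ranges of -0.13 to -0.00 for *T*, -0.56 to -0.14 for *Cdx1*, -0.28 to -0.14 for *Cdx2*, -0.23 to -0.10 for *Cdx4*, -0.27 to -0.18 for *Cyp26a1*, -0.15 to 0.03 for *Evx1*, -0.36 to -0.10 and -0.14 to -0.05 for the *Nkx1-2* probes and -0.17 to -0.01 for *Sp5*.

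Of all tested probes, 376 were called at 2-fold. The count was 145 under normexp, 228 with probes well above background on all arrays, 240 with both arrays left out and 300 to 418 with single arrays left out. Without the fold limit 6243 were called, 12689 under median scaling, 3111 of 55681 with no filter, 3706 with both arrays left out and 4157 (without HET father replicate 3) to 6131 with single arrays left out. The replicate numbers are shared by the father groups, and same-numbered arrays showed little common deviation (correlations of 0.19, -0.09, -0.13 and 0.15). These few correlations cannot decide if samples are paired. By the study's account HOM and HET sires were littermate brothers, and the labels do not say which embryos descend from which pair. A pairing by sire family could therefore not be fitted. With the replicate block 232 probes were called at 2-fold and 3487 without the fold limit, and 0 member probes were called.

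Sex differences were small and 11 of 126 turned sign, none called. Without HOM father replicate 2 these were *Cdx1* (-0.0070), *Cdx2* (0.028), *Nkx1-2* (-0.11, A_51_P470304), *Cyp26a1* (-0.0071) and *Evx1* (-0.11). The others were *Cdx2* under median scaling (0.042) and without HOM father replicate 3 (0.021), *Nkx1-2* under normexp (-0.038) and without HET father replicate 4 (-0.015), and *Evx1* under quantile normalisation (-0.0092) and without HOM father replicate 4 (-0.023). Over single arrays left out, the ranges were -0.0070 to 0.50 for *Cdx1*, -0.086 to 0.028 for *Cdx2*, -0.11 to 0.21 for that *Nkx1-2* probe, -0.0071 to 0.094 for *Cyp26a1* and -0.11 to 0.11 for *Evx1*.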
